A study of Mus musculus with 9 samples.

Results

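Btla, Tnfsf14 and Tnfrsf1a were followed as 3 rows of the deposited count table, out of 56923 rows in all, across 9 libraries of EL4 tumours. The rows carry the identifiers ENSMUSG00000053182, ENSMUSG00000024209 and ENSMUSG00000038167. Each lay on 1 of these genes once its position was inferred from the counts. They were chosen with earlier results of these data known, so their unadjusted p-values are not those of rows picked blind. The gene names are therefore inferred and are not the names deposited with the rows. Names of the pathway, marker and other genes given below were inferred in the same way. All 3 rows passed the low-count filter, which 11521 rows passed.

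EL4 cells are a T-cell lymphoma line of the mouse. The 5 tumours of the control group have the genotype Vec in the labels, which do not spell the term out. The 4 tumours of the other group have the genotype HVEM-KO, a knockout of HVEM, the protein of the gene Tnfrsf14. Treatment, time after grafting, host strain, age, sex and number of knockout clones are not given in the labels, and separate animals are not stated, so p-values measure only the spread between libraries. The samples are labelled as tumours and not as sorted cells, so RNA of host cells can be mixed with RNA of EL4 cells. Vec 1 and Vec 5 were the lowest 2 of the 9 libraries in summed fibroblast, endothelial and CD8 and natural killer markers. In the fibroblast sum HVEM-KO 4, at 4941 CPM, lay close to Vec 5, at 4368 CPM. Results are also given without Vec 1 and Vec 5.

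HVEM is a receptor of the TNF receptor superfamily with ligands of more than 1 family. BTLA, an inhibitory receptor of the immunoglobulin superfamily found on B cells, T cells and dendritic cells, binds HVEM and recruits phosphatases that dampen antigen receptor signalling. LIGHT, the product of Tnfsf14, is a TNF-family ligand of HVEM and of the lymphotoxin beta receptor and is made by activated T cells, natural killer cells and myeloid cells. Tnfrsf1a encodes TNFR1, the widely expressed receptor for TNF and lymphotoxin alpha that signals to NF-kB and to cell death.

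The row read as Btla (own symbol Gm609, chromosome 16) was displaced by -179750 bp, as were the other rows of a stretch of 675. Its exons, 4404 bp in all, then covered 321 bp of Btla exons, which is the whole of the coding exon 2 of 6 in the principal transcript. A further 3195 bp lay in Btla introns and 888 bp outside the gene. The row read as Tnfsf14 (own symbol 1700061G19Rik, chromosome 17) was displaced by 307000 bp in a stretch of 596 rows. It had 773 of its 2906 bp on Tnfsf14 exons, of which 234 bp were coding, with 605 bp in introns and 1528 bp outside the gene. The row read as Tnfrsf1a (own symbol Plekhg6, chromosome 6) was displaced by -23000 bp in a stretch of 2373 rows. It had 498 of its 3299 bp on Tnfrsf1a exons, of which 317 bp were coding, with 1394 bp in introns and 1407 bp outside the gene. The same displacement was best in each stretch when the row itself was left out. Its lead over the next best one more than 1 kb away was 34.3, 30.8 and 173.9 log-likelihood units. Each row was 1 of many in a stretch that had been fitted with it, so leaving it out could hardly move the displacement. The log-likelihood gain of the row itself was only 0.18 for Btla, 0.82 for Tnfsf14 and 1.18 for Tnfrsf1a. With steps of 10 bp the exon overlap was 321 bp for Btla, 692 to 732 bp for Tnfsf14 and 491 to 498 bp for Tnfrsf1a. No exon of another annotated gene lay under any of the 3 rows, and 0 of the other rows of these chromosomes lay on exons of the 3 genes. In GRCm38, Btla lies at chr16:45224315-45257670 on the plus strand, Tnfsf14 at chr17:57189492-57194177 on the minus strand and Tnfrsf1a at chr6:125349362-125362484 on the plus strand. Each row is annotated on the strand opposite to its gene. The strand of the counting is not given in the sources used here, so an antisense transcript could not be told apart. Reads from introns and from outside the gene could not be separated from exon reads.

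**Figure D1:**
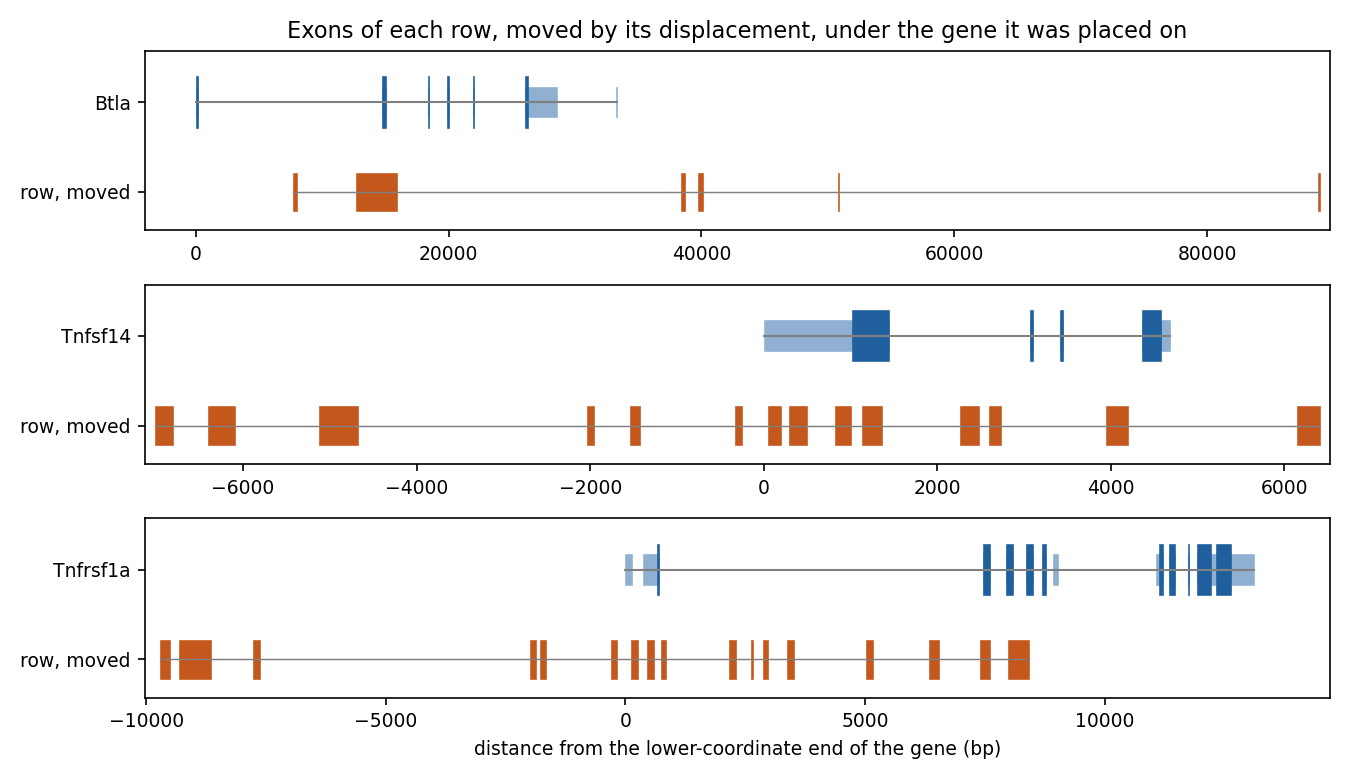
Position of the 3 rows on the genes they were placed on, with distance from the lower-coordinate end of the gene in bp. Dark blue boxes are coding exons, light blue boxes are other exon sequence, and orange boxes are the exons of the row after displacement. One exon of Btla, 1 of Tnfsf14 and 5 of Tnfrsf1a are touched by the row.

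The coding bases under the rows are shown as part of the sequence of each gene that its row could count. Intron bases, and non-coding exon bases of Tnfsf14 and Tnfrsf1a, also lay under the rows and are not shown. The placement itself rests on the other rows of each stretch, and the share of reads that came from these bases is not known. They are the sense strand of GENCODE vM21 transcripts on GRCm38, and capitals mark the bases that lay under the row at every displacement of the 10 bp search. The Btla stretch (chr16:45239054-45239353, plus strand, 300 of the 321 bases of exon 2) was under its row throughout, the Tnfsf14 stretch (chr17:57190514-57190813, minus strand, coding end of exon 4) with 194 of 300 bases. Exons 2, 3 and 4 of Tnfrsf1a (chr6:125356825-125356978, chr6:125357313-125357441 and chr6:125357721-125357870, plus strand) had 102, 112 and 23 bases under the row.
Btla exon 2: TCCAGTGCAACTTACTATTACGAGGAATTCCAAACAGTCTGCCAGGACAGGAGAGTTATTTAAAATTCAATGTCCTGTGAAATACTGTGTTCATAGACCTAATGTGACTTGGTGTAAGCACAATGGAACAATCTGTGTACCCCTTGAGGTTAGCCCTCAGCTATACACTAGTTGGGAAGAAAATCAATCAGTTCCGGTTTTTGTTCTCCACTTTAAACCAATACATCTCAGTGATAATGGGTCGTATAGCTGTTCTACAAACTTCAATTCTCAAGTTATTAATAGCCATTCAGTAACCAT
Tnfsf14 exon 4: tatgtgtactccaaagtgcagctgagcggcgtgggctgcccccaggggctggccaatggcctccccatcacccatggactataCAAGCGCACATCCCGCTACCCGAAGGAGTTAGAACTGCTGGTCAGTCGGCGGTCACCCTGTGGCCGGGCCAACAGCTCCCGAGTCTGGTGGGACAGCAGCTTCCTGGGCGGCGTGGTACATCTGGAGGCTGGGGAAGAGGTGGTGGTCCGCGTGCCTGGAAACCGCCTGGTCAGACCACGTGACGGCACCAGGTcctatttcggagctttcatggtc
Tnfrsf1a exon 2: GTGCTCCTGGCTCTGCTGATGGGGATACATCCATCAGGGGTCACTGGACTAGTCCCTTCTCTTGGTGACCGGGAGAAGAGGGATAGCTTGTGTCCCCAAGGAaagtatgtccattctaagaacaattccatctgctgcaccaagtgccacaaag
Tnfrsf1a exon 3: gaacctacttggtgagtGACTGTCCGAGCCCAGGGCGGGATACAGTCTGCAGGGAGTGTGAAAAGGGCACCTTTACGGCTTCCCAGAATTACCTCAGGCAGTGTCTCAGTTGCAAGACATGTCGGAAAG
Tnfrsf1a exon 4: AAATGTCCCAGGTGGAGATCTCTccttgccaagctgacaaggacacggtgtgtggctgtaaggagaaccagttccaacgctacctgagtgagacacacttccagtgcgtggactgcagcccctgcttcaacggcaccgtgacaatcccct

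Btla was the lowest of the 3 rows in reads, with 139 in all, and its level was low in every HVEM-KO tumour and uneven among Vec tumours. Levels are given as CPM, read counts scaled to a fixed TMM-normalised library size, and are compared between libraries within a row, never between genes. In Vec 1 to 5 the row was at 5.61, 2.25, 5.07, 1.19 and 2.04 CPM, from 45, 13, 39, 8 and 12 reads. In HVEM-KO 1 to 4 it was at 0.981, 0.502, 0.819 and 1.32 CPM, from 6, 3, 5 and 8 reads. Vec 1 and Vec 3 stood highest and held 84 of the 139 reads, while Vec 4 lay below HVEM-KO 4, so the groups overlapped. The means were 3.23 ± 1.97 CPM (SD, n = 5) for Vec against 0.906 ± 0.341 CPM (SD, n = 4) for HVEM-KO, 3.56-fold higher in Vec by the fitted model. The log2 fold change of HVEM-KO over Vec was -1.83 ± 0.53 (SE), which did not pass the threshold of 0.05 (edgeR's quasi-likelihood test, adjusted p = 0.353 over all 11521 rows). In bulk tumours, fewer cells of a type and less RNA per cell cannot be told apart.

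Among Vec tumours the Btla reads varied more than counting alone gives, with a variance 8.14 times that of Poisson counting. Among HVEM-KO tumours it was 0.774 times, so at 3 to 8 reads the spread of that group was no wider than counting error. The 95% Poisson intervals cover counting error only, and are too narrow if PCR copies of a molecule were counted as separate reads. These intervals ran from 4.10 to 7.51 CPM in Vec 1 and from 0.103 to 1.47 CPM in HVEM-KO 2. The order of the libraries from the highest was Vec 1, Vec 3, Vec 2, Vec 5, HVEM-KO 4, Vec 4, HVEM-KO 1, HVEM-KO 3 and HVEM-KO 2. The intervals of neighbours in that order overlapped at every step.

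Tnfsf14, the ligand, had its higher mean in HVEM-KO tumours, and its levels spread widely within each group. In Vec 1 to 5 its row was at 2.99, 16.9, 6.24, 11.6 and 2.90 CPM, from 24, 98, 48, 78 and 17 reads. In HVEM-KO 1 to 4 it was at 22.1, 14.5, 23.6 and 9.75 CPM, from 135, 87, 144 and 59 reads. HVEM-KO 3 and HVEM-KO 1 were highest and Vec 5 and Vec 1 lowest, with Vec 2 and Vec 4 among the HVEM-KO values. The highest library was 8.14 times the lowest. The means were 8.14 ± 6.06 CPM (SD, n = 5) against 17.5 ± 6.50 CPM (SD, n = 4), and the log2 fold change was 1.11 ± 0.48 (SE). That difference did not pass either (edgeR's quasi-likelihood test, adjusted p = 0.450).

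Tnfrsf1a, the receptor for TNF, had the most reads of the 3 rows, 5742, and so the smallest counting error. In Vec 1 to 5 it was at 43.2, 120.8, 85.1, 91.9 and 43.3 CPM. In HVEM-KO 1 to 4 it was at 131.3, 125.2, 164.1 and 102.3 CPM. Only Vec 2 reached into the HVEM-KO range, and Vec 1 and Vec 5 lay at about equal levels below the rest. The means were 76.8 ± 33.5 CPM (SD, n = 5) against 130.7 ± 25.5 CPM (SD, n = 4), a fitted 1.70-fold, with a log2 fold change of 0.77 ± 0.29 (SE) that did not pass (edgeR, adjusted p = 0.425). Counting error was a small share of that spread, since the variance was 95.6 times Poisson counting in Vec and 30.2 times in HVEM-KO tumours.

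**Figure D2:**
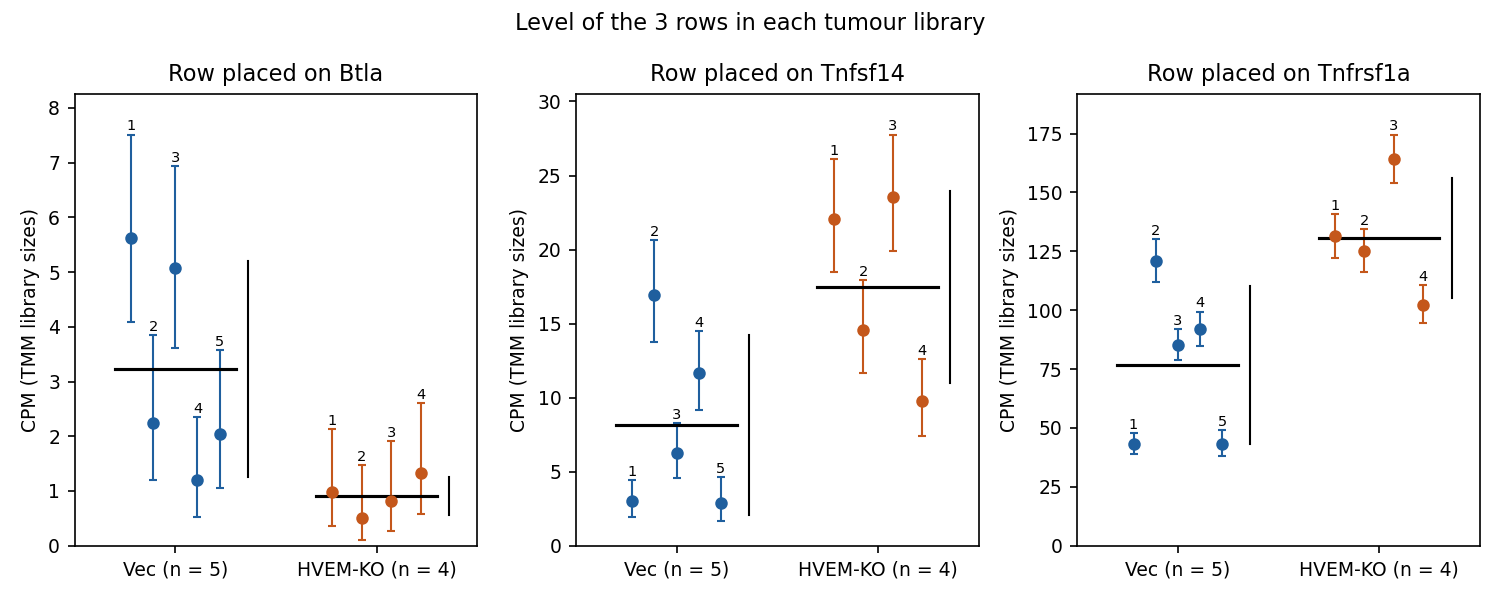
Level of each row in CPM by library, for Vec and HVEM-KO tumours, with the replicate number beside each point. Error bars are 95% Poisson intervals for counting error, thick lines are group means and thin lines ± SD. Groups overlap in each panel, and Vec 1 and Vec 5 are the lowest 2 libraries for Tnfsf14 and Tnfrsf1a and not for Btla.

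Against all rows tested, edgeR called 0 of the 3 at the adjusted threshold, where it called 0 of 11521 rows (0%), limma voom 0 and DESeq2 81 rows (0.703%), none of them among the 3. With no low-count filter edgeR called all 3, among 307 of 28852 rows (1.06%), with adjusted p = 0.0433, adjusted p = 0.0247 and adjusted p = 0.00458. All 3 rows had an unadjusted p under 0.05 (0.0047, 0.0394 and 0.0197), as had 1226 rows (10.6%). Groups overlapped for all 3 rows, and did not overlap for 337 rows (2.93%). The median log2 fold change of all rows was 0.01, with 0.434% of rows as low as Btla or lower, 1.502% as high as Tnfsf14 or higher and 5.25% as high as Tnfrsf1a or higher.

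Each row was also tested on its own over all ways to split the libraries into 5 and 4. In this two-sided exact permutation test on log2(CPM + 0.5), the difference of the means was -1.27 for Btla (exact permutation p = 0.0238), 1.28 for Tnfsf14 (exact permutation p = 0.0794) and 0.86 for Tnfrsf1a (exact permutation p = 0.0397). These p-values are for single rows, chosen with earlier results of these data known, and are not adjusted. The smallest the design allows is 0.0079. Without Vec 1 and Vec 5, the differences were -1.11 for Btla (exact permutation p = 0.0571), 0.60 for Tnfsf14 (exact permutation p = 0.286) and 0.39 for Tnfrsf1a (exact permutation p = 0.143), where 0.0286 is the smallest possible. The fitted log2 fold changes were then -1.64, 0.60 and 0.40. Vec 1 and Vec 5 were the lowest libraries for Tnfsf14 and Tnfrsf1a, so leaving them out lowers those differences by construction. The size of the moves therefore does not compare the rows.

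**Figure D3:**
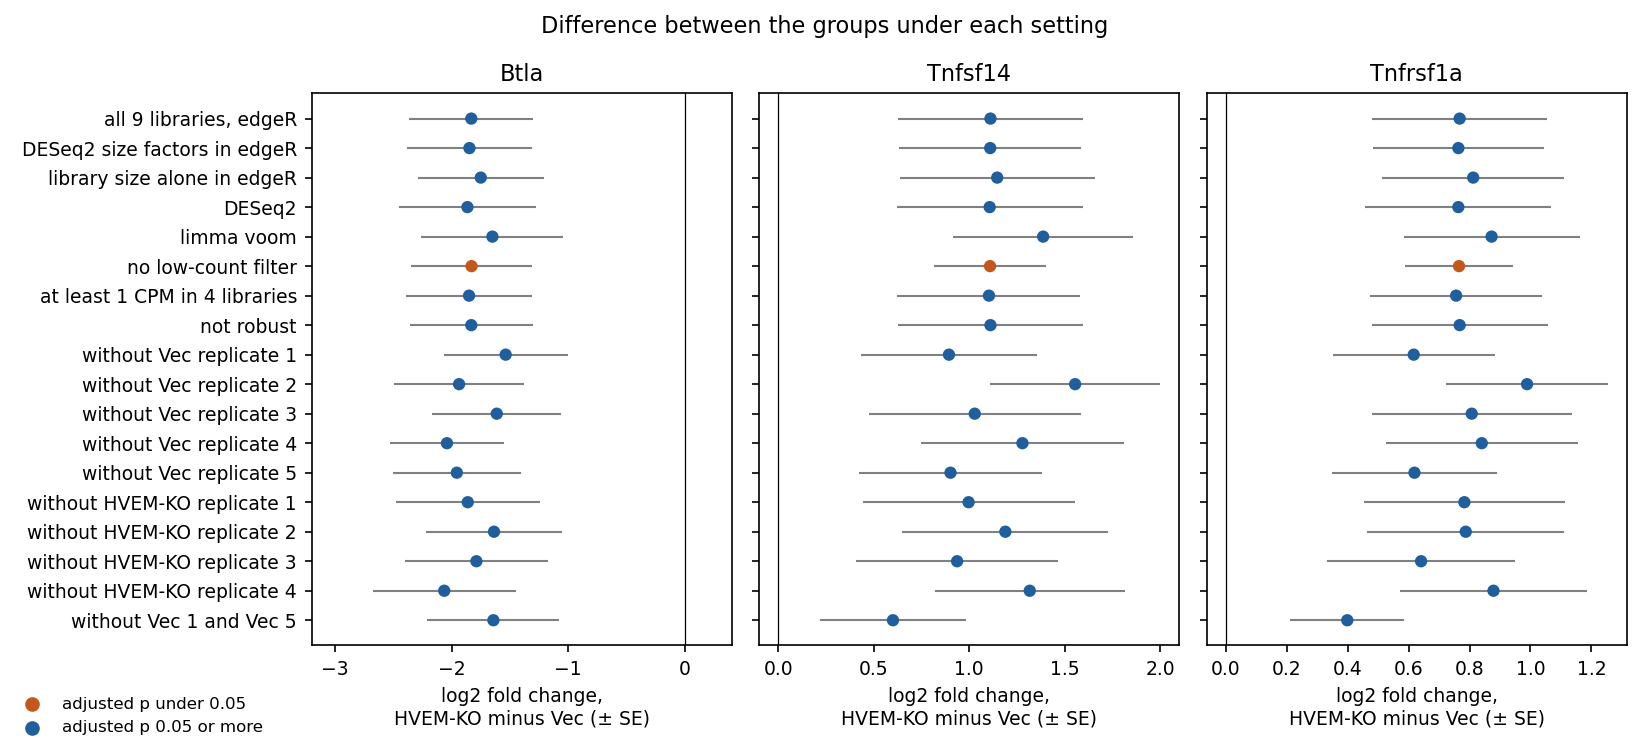
Log2 fold change of HVEM-KO over Vec tumours with its SE, for each row under the main edgeR fit and each other setting. Orange points passed an adjusted p of 0.05, as all 3 rows did without a low-count filter, and blue points did not. Each row keeps its sign throughout.

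Of the 3 pairs of rows, 1 moved closely together. Tnfsf14 and Tnfrsf1a had high and low levels in the same tumours over the 9 libraries, with Pearson r = 0.97 on log2(CPM + 0.5) (exact permutation p = 4e-05, adjusted p = 0.00012 over 3 pairs) and Spearman rho = 0.95 (exact permutation p = 0.00035, adjusted p = 0.00106). Their orders of the libraries differed only by neighbours trading places: Vec 2 with HVEM-KO 2, Vec 4 with HVEM-KO 4 and Vec 1 with Vec 5. The relation was also there inside each group, as a description, with r = 0.97 over the 5 Vec and r = 0.91 over the 4 HVEM-KO libraries. Without Vec 1 and Vec 5, the libraries farthest from the median of Tnfsf14, r was 0.91 (exact permutation p = 0.00575).

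Btla had negative r with both, over few libraries. Its r with Tnfsf14 was -0.71 (exact permutation p = 0.0336, adjusted p = 0.0440) with rho = -0.67 (exact permutation p = 0.0589, adjusted p = 0.0589). Its r with Tnfrsf1a was -0.68 (exact permutation p = 0.0440, adjusted p = 0.0440) with rho = -0.80 (exact permutation p = 0.0138, adjusted p = 0.0207). Without Vec 1 and Vec 3, the libraries with most Btla reads, r was -0.51 (exact permutation p = 0.250) and -0.58 (exact permutation p = 0.181), so neither relation held without those 2 libraries. Within the groups r of Btla with Tnfsf14 was -0.50 in Vec and -0.33 in HVEM-KO tumours, and with Tnfrsf1a -0.34 and -0.44. Vec 1 was the highest library for Btla and among the lowest 2 for both others.

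**Figure D4:**
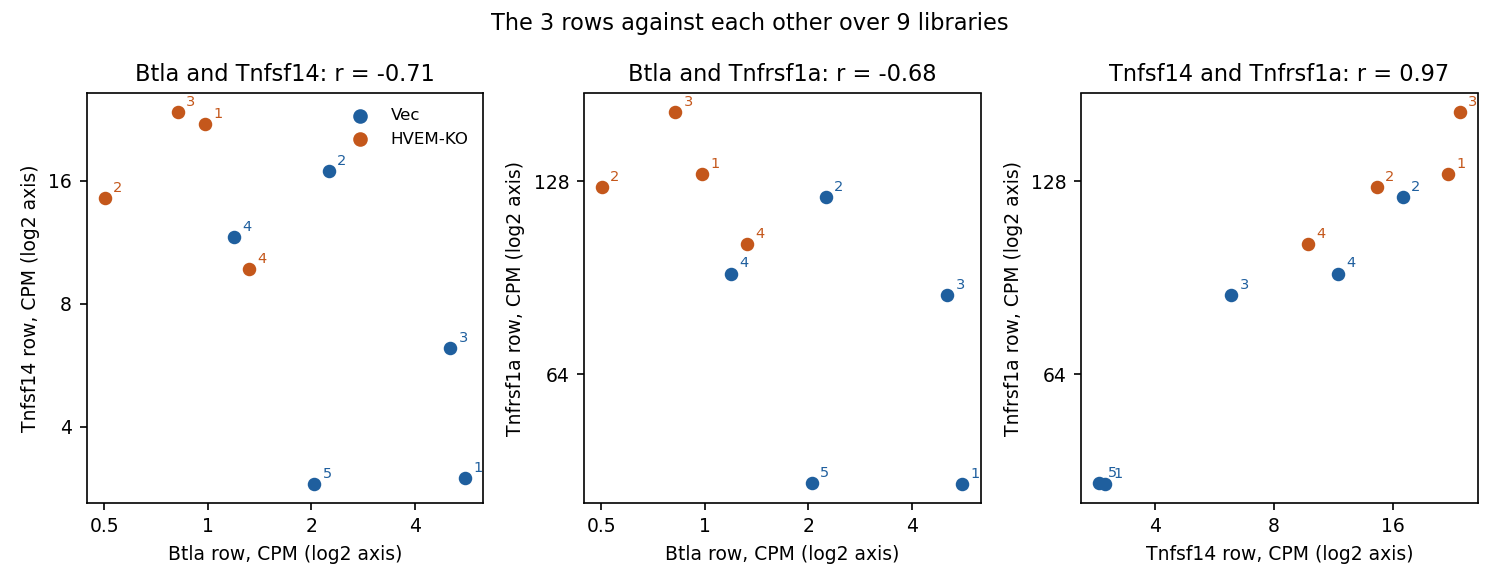
Each pair of the 3 rows over the 9 libraries, in CPM on log2 axes, with Vec and HVEM-KO tumours in different colours and the replicate number beside each point. Tnfsf14 and Tnfrsf1a follow 1 line (r = 0.97 on log2(CPM + 0.5)), and both plots with Btla scatter around a falling one.

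The windows just before the RefSeq starts of Tnfsf14 and Tnfrsf1a are shown because the levels of these rows moved together; promoter activity was not measured. They are on GRCm38.p6, 250 bases for Tnfsf14 (chr17:57194182-57194431, minus strand) and, without the bases under an exon of another transcript, 214 for Tnfrsf1a (chr6:125349509-125349722, plus strand). The Tnfrsf1a window precedes the start of the principal transcript, and lies in the first intron of shorter GENCODE transcripts that start further upstream. Capitals mark motif matches.
Tnfsf14: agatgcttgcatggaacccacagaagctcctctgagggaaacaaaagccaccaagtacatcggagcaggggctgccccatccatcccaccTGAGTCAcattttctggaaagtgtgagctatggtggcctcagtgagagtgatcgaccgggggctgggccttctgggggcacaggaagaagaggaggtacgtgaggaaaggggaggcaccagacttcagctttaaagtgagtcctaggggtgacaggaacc
Tnfrsf1a: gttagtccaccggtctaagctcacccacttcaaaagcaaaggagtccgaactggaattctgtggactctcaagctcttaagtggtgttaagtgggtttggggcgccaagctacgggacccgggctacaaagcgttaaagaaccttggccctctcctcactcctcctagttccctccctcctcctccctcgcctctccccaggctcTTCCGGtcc
Both strands of the 250 bases before each start were searched for the CCAAT box (CCAAT), the GC box (GGGCGG), the AP-1 motif (TGANTCA), the TATA box (TATAAA), the E-box (CACGTG), the ETS core (CCGGAA) and the NF-kB motif. Of 32851 RefSeq promoters of the same length these were held by 33.8%, 32.7%, 6.75%, 12.4%, 6.02%, 12.03% and 7.25%. Tnfsf14 held 1 match, TGAGTCA of the AP-1 motif, 160 bases before the start. Tnfrsf1a held 1 match, TTCCGG of the ETS core, 9 bases before the start, and Btla held none of the 7. The GC content of the 250 bases was 47.2% for Btla, 56.0% for Tnfsf14 and 55.6% for Tnfrsf1a.

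From 2735 placed genes whose mean log2 CPM was 1 or more, the 5 closest to each row by Pearson r over the 9 libraries were taken, as a description with no p, since all share the same libraries. For Btla they were Smc2, a condensin subunit (r = 0.95), Mbnl1, a splicing regulator (r = 0.92), and Lrif1, Ecpas and Ap3d1 (each r = 0.91). Only 6 genes (0.219%) reached r = 0.9 with Btla. For Tnfsf14 they were Irf8, a transcription factor of myeloid and B cells (r = 0.99), Zyx, a focal adhesion protein (r = 0.98), Lrrc32, which holds latent TGF-beta at the cell surface (r = 0.98), Tnfrsf1a itself and Xdh, xanthine dehydrogenase (r = 0.97 each). For Tnfrsf1a they were Ccni, a cyclin (r = 0.98), Spi1, the myeloid and B-cell factor PU.1 (r = 0.98), Xdh (r = 0.97), Irgm2, an interferon-induced GTPase (r = 0.97), and Tnfsf14. The patterns of Tnfsf14 and Tnfrsf1a were common ones, since 115 genes (4.20%) and 120 genes (4.39%) reached r = 0.9 with them. Without Vec 1 and Vec 5, r lay between 0.85 and 0.94 for the 5 genes of Btla, between 0.90 and 0.98 for those of Tnfsf14 and between 0.86 and 0.91 for those of Tnfrsf1a.

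The levels of Irf8, closest to Tnfsf14, ran from 46.9 to 132.5 CPM in Vec and from 104.9 to 208.6 CPM in HVEM-KO tumours. Those of Spi1 ran from 17.04 to 65.7 and from 46.3 to 77.8 CPM. Smc2, closest to Btla, ran from 450.0 to 619.7 CPM in Vec and from 373.2 to 457.9 CPM in HVEM-KO tumours. The groups overlapped for all 3 genes, of which none passed in edgeR (adjusted p = 0.393 for Irf8, adjusted p = 0.487 for Spi1 and adjusted p = 0.425 for Smc2).

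Most of the rest of the pathway had no row that could be placed. Of 84 genes listed for HVEM, TNF and NF-kB signalling, BTLA signalling and other T cell checkpoints, 13 had a placed row and 12 were tested, 9 higher and 3 lower in HVEM-KO tumours with 0 past the threshold. The 9 tested genes besides the 3 rows above were 7 higher and 2 lower, with a median log2 fold change of 0.15, where 52% of all tested rows were higher. The other partners of HVEM, namely Cd160, Lta, Ltb and Ltbr, and the TNF genes Tnf and Tnfrsf1b had no placed row and are not described. The row under the identifier of Tnfrsf14 held 1 read in all and was not placed on that gene, so the knockout was not checked by its target. The rows under the own identifiers of Btla, Tnfsf14 and Tnfrsf1a held 5, 6 and 13 reads, and lay elsewhere once displaced.

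In the signalling group next to the receptors, 3 of 22 genes were placed and 0 passed. Map3k7, the kinase TAK1, was at 336.9 ± 35.9 CPM (SD, n = 5) for Vec against 325.4 ± 28.1 CPM (SD, n = 4) for HVEM-KO, with a log2 fold change of -0.05 ± 0.12 (SE). Map3k14, the kinase NIK of the alternative NF-kB pathway, was at 27.6 ± 2.94 and 32.1 ± 6.94 CPM, with a log2 fold change of 0.22 ± 0.18 (SE). Ikbkg, the regulatory subunit NEMO of the IKK complex, had a log2 fold change of 0.12 ± 0.17 (SE). The groups overlapped for each of these genes, and the differences were small beside those of Tnfsf14 and Tnfrsf1a, though the differences between genes were not tested.

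Of the NF-kB subunits and targets, 3 of 18 were placed, 3 were higher and 0 passed. Relb, the subunit of the alternative pathway, was at 27.1 ± 7.24 CPM (SD, n = 5) for Vec against 37.6 ± 7.89 CPM (SD, n = 4) for HVEM-KO (edgeR's quasi-likelihood test, adjusted p = 0.462). Nfkb1 was at 45.8 ± 10.5 and 60.2 ± 18.2 CPM. Vcam1, an adhesion molecule, was at 32.8 ± 11.4 and 36.5 ± 8.55 CPM. All 3 ranges overlapped between groups, and Relb was lowest in Vec 5 and highest in HVEM-KO 3, as Tnfsf14 was.

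Of 28 other checkpoint genes 3 were placed and 0 passed. Cd86, a costimulatory ligand of antigen-presenting cells, was at 8.90 ± 2.72 CPM (SD, n = 5) for Vec against 14.2 ± 5.01 CPM (SD, n = 4) for HVEM-KO (edgeR's quasi-likelihood test, adjusted p = 0.462). Havcr2, which encodes TIM-3, was at 6.73 ± 4.17 and 7.05 ± 2.42 CPM. Cd48, a ligand of the SLAM family, was at 43.6 ± 13.3 and 38.0 ± 9.74 CPM. Ptpn6, the phosphatase SHP-1 and the only 1 of 6 BTLA signalling genes with a placed row, held 42 reads and did not pass the low-count filter.

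Marker rows of the cell types that can carry these genes were set beside them. The marker names are inferred from placement, some from short overlaps. Rows covered 127 bp of Cd8b1, 594 bp of Klrd1 and 113 bp of Cd3e, each annotated on the strand opposite to the gene. By contrast, 8853 bp of Pax5 lay under its row, on the same strand. T-lineage rows, which EL4 cells also express, summed to 2831 to 5684 CPM in Vec and 2381 to 3592 CPM in HVEM-KO tumours over 6 placed markers of 11. Of these, Lck, Zap70, Thy1 and Lat had their lowest values at 280.2, 98.4, 1060 and 784.2 CPM in any library, and Thy1 and Lat made up most of the sum. Cd3e lay between 1.21 and 4.58 CPM with 196 reads in all, and Cd6 held 9 reads and was at 0 in 5 libraries. The log2 fold change was between -0.51 and -0.41 for the first 4 and 0.37 ± 0.35 (SE) for Cd3e, none past the threshold. The groups did not overlap for 2 of the 5 tested T-lineage genes, Lck and Zap70, both lower in HVEM-KO tumours. They did not overlap for 2.93% of all tested rows. The 3 placed CD8 and natural killer markers of 11 (Cd8b1, Klrd1 and Klrc1) summed to 6.48 to 26.3 CPM in Vec and 20.2 to 40.3 CPM in HVEM-KO tumours, with Klrd1 at 12.6 of the mean 17.9 CPM in Vec. The 3 placed B-cell markers of 11 (Ms4a1, Pax5 and Blk) summed to 7.74 to 18.2 and 8.19 to 18.3 CPM, nearly all of it Pax5. Ms4a1, which defines B cells, held 20 reads in all and was at 0 in Vec 3, Vec 5 and HVEM-KO 2.

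The 2 placed macrophage markers of 11 (Mertk and Cd163) summed to 3.58 to 7.08 CPM in Vec and 3.14 to 15.4 CPM in HVEM-KO tumours. The 8 placed fibroblast markers of 14 summed to 3479 to 14020 and 4941 to 17308 CPM, and the 4 placed endothelial markers of 8 to 93.7 to 231.4 and 188.5 to 239.4 CPM. Pecam1 alone gave 125.1 of the mean 151.9 CPM of the endothelial sum in Vec, and Col1a2 gave 3577 of the mean 7598 CPM of the fibroblast sum, so these sums mostly follow 1 or a few rows. Each summed level overlapped between groups. Of the lists with 1 placed marker, Itgax for dendritic cells had a log2 fold change of 0.98 ± 0.33 (SE), and Csf3r for neutrophils 0.92 ± 0.38 (SE), neither past the threshold in edgeR (adjusted p = 0.393 for Itgax and adjusted p = 0.433 for Csf3r). No marker with a placed row was at 0 in all libraries, but Emcn held 2 reads, and Cd6 and the erythroid Slc4a1 9 each.

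Tnfsf14 and Tnfrsf1a followed most of these sums and Btla followed none beyond the adjusted threshold by Pearson r (18 pairs of row and list). With the CD8 and natural killer sum, r was 0.91 for Tnfsf14 (exact permutation p = 2.2e-05, adjusted p = 0.0004) and 0.91 for Tnfrsf1a (exact permutation p = 9.4e-05, adjusted p = 0.00079), with rho = 0.95 for both (exact permutation p = 0.00035, adjusted p = 0.00317). With the endothelial sum, r was 0.94 (exact permutation p = 0.00056, adjusted p = 0.00254) and 0.98 (exact permutation p = 0.00013, adjusted p = 0.00079), and rho 0.93 and 0.92 (exact permutation, adjusted p = 0.0045 and adjusted p = 0.0059). With the fibroblast sum, r was 0.88 (exact permutation p = 0.0024, adjusted p = 0.0072) and 0.86 (exact permutation p = 0.0015, adjusted p = 0.0055), and rho 0.85 and 0.83 (exact permutation, adjusted p = 0.0182 and adjusted p = 0.0213). Both rows were thus high in the libraries where these summed markers were high. The permutations moved libraries across the 2 groups, so a difference between groups also enters these p-values. As deviations from the group means, r was 0.85 and 0.86 with the CD8 and natural killer sum. It was 0.91 and 0.97 with the endothelial sum, and 0.88 and 0.87 with the fibroblast sum. What part those cells had in the rows was not tested.

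With the macrophage sum, r was 0.76 for Tnfsf14 and 0.77 for Tnfrsf1a (exact permutation p = 0.0165 and p = 0.0148, adjusted p = 0.0297 for both), with rho = 0.85 and rho = 0.80 (exact permutation, adjusted p = 0.0182 and adjusted p = 0.0277). With the T-lineage sum the sign was the opposite, at -0.76 and -0.77 (exact permutation p = 0.0148 and p = 0.0134, adjusted p = 0.0297 for both), with rho = -0.73 and rho = -0.77 (exact permutation, adjusted p = 0.0509 and adjusted p = 0.0385). With B-cell markers r was 0.03 and 0.07, and -0.13 for Btla. The r of Btla lay between -0.68, with the fibroblast sum (exact permutation, adjusted p = 0.0787), and 0.34, with the T-lineage sum. Its rho with the CD8 and natural killer sum was -0.80 (exact permutation p = 0.0138, adjusted p = 0.0277), while its r of -0.53 did not pass (exact permutation p = 0.142, adjusted p = 0.196). As deviations from the group means, r of Btla was -0.17 with that sum, -0.61 with the fibroblast sum and -0.23 with the T-lineage sum. For Tnfsf14 and Tnfrsf1a it was 0.73 and 0.74 with the macrophage sum, and -0.61 and -0.60 with the T-lineage sum.

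Leaving out the 2 libraries farthest from the median of each sum, r with the CD8 and natural killer sum was 0.96 for Tnfsf14 and 0.91 for Tnfrsf1a. It was 0.78 and 0.88 with the endothelial sum, 0.74 and 0.73 with the fibroblast sum, 0.90 and 0.96 with the macrophage sum, and -0.53 and -0.57 with the T-lineage sum. The fibroblast relations (exact permutation p = 0.0583 and p = 0.0633) kept their sign but missed an unadjusted 0.05 over the fewer libraries. The T-lineage relations did as well (exact permutation p = 0.235 and p = 0.184). With single libraries left out, the macrophage relation missed the adjusted threshold for both rows when Vec 1, Vec 5 or any of HVEM-KO 1 to 3 was absent, and for Tnfsf14 also when Vec 4 was. Its largest adjusted p-values came with r = 0.71 for Tnfsf14 (exact permutation, adjusted p = 0.104) and r = 0.70 for Tnfrsf1a (exact permutation, adjusted p = 0.106), both without HVEM-KO 3. The T-lineage relation missed it for both rows when Vec 1, HVEM-KO 1, HVEM-KO 3 or Vec 5 was absent, with r = -0.62 and r = -0.60 without Vec 5 (exact permutation, adjusted p = 0.138 for both). Without Vec 1 and Vec 5, only the CD8 and natural killer relations passed over the 18 pairs, with r = 0.92 for Tnfsf14 and r = 0.94 for Tnfrsf1a (exact permutation, adjusted p = 0.0411 for both).

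**Figure D5:**
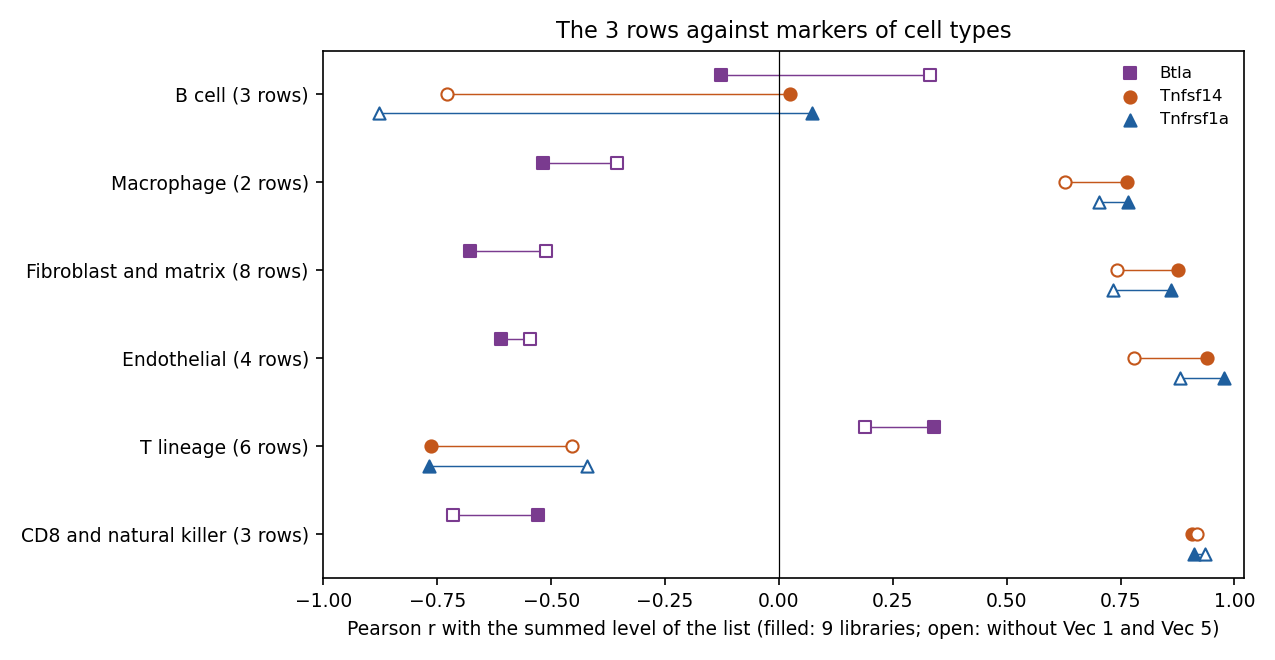
Pearson r of each row with the summed level of each marker list that had at least 2 placed rows, over all 9 libraries (filled) and without Vec 1 and Vec 5 (open). Tnfsf14 and Tnfrsf1a stay near 0.9 for CD8 and natural killer markers in both, and their r with B-cell markers moves from near 0 to -0.73 and -0.88.

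Total counts ran from 5532155 to 8205620 per library, and 5.94% to 13.7% of counts lay on mitochondrial rows, with overlap between groups. Depth limits Btla most, since at 3 to 8 reads in each HVEM-KO tumour a difference among those tumours was not detectable.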

How the data were processed

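RNA-seq was done on 9 EL4 tumour libraries, 5 Vec and 4 HVEM-KO, grouped by the genotype in the labels. RNA was taken with TRIzol and libraries made with a SMARTER mRNA-Seq kit, per the labels' protocols. The authors deposited raw counts per gene, with 56923 rows, on mm10 per the submitters' processing notes. For the aligner, counting program, strand setting and annotation, each is not given in the sources used here.

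Most placed rows did not count the gene they are named for, so positions were inferred. GENCODE vM21 exons were shifted row by row in steps of 250 bp up to 2000000 bp, and a hidden Markov model (switch penalty 20) found the displacement at which overlap with coding-gene exons best fitted row totals. The log-likelihood gain over 50488 rows in 99 stretches was 7221 displaced. It was -14240 undisplaced under the same model and 714.6 undisplaced under a model fitted without displacement. The fit favours displacement by construction. A row was placed with a posterior of at least 0.99, at least 100 bp of overlap and 90% of it on 1 gene. This placed 5647 rows on 4460 genes, 679 of them on the row's own gene. The search and the count test were also tested on simulated data.

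The count test was edgeR 4.0.16 under R 4.3.3 (TMM, filterByExpr, robust quasi-likelihood F test, no covariates, Benjamini-Hochberg over 11521 rows, threshold 0.05). DESeq2 1.42.0, limma 3.58.1 (voom), other scalings and filters, leaving out each library and leaving out Vec 1 with Vec 5 (chosen after seeing the data) were alternatives. CPM used TMM library sizes, with 0.5 CPM added before log2. Single rows and correlations had exact permutation tests. All pairs of libraries within a group differed beyond sampling noise, with chi-square per degree of freedom of 11.2 or more. The genes named were the 3 rows, placed genes of the pathway and marker lists and the 5 placed genes closest in pattern to each row. The rows and lists were chosen with earlier results of these data known. RefSeq promoters matched all 3 genes.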

Additional observations from a re-analysis of the deposited data

Results flagged for a closer look

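The screen covered 36 groups of values (the 3 rows, the marker sums and the tested pathway genes, in each genotype). In these, 2 values stood far from the rest of their group by Dixon's ratio of gap to range, where chance gives about 1.8. None was for Btla, Tnfsf14 or Tnfrsf1a. Map3k7 was at 399.1 CPM in Vec 3 against 310.3 to 334.9 CPM in the other Vec libraries (ratio 0.724). Map3k14 was at 22.5 CPM in Vec 3 against 27.99 to 29.99 CPM in the others (ratio 0.733).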

How the results depend on the processing

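Log2 fold changes kept their direction under every alternative run, and 0 of the 3 rows passed except without a low-count filter, where edgeR's quasi-likelihood test gave -1.83 for Btla (adjusted p = 0.0433), 1.11 for Tnfsf14 (adjusted p = 0.0247) and 0.77 for Tnfrsf1a (adjusted p = 0.00458). That setting tested 28852 rows and called 307, 147 higher and 160 lower. DESeq2 called 81 rows, 15 higher and 66 lower, and edgeR 0 to 1 with 1 library left out, the 1 being without HVEM-KO 2 or HVEM-KO 4. The cause of these changes was not tested. With 1 library left out, log2 fold changes ran from -2.06 to -1.54 for Btla, 0.89 to 1.56 for Tnfsf14 and 0.62 to 0.99 for Tnfrsf1a.

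Permutation differences with 1 library left out ran from -1.52 to -1.05 for Btla (exact permutation p = 0.0286 to p = 0.0714), 1.018 to 1.61 for Tnfsf14 and 0.68 to 1.05 for Tnfrsf1a (exact permutation p = 0.0286 to p = 0.125), with fewer splits and so a larger smallest p. By library size alone that of Tnfrsf1a was 0.92 (exact permutation p = 0.0556), and without Vec 1 and Vec 5 those of Btla and Tnfrsf1a were -1.11 and 0.39. The r of Btla ran from -0.82 to -0.57 with Tnfsf14 and -0.79 to -0.49 with Tnfrsf1a with 1 library left out. It was -0.68 and -0.65 by library size alone and -0.68 and -0.64 without Vec 1 and Vec 5, none of these 4 past the threshold. The r of Tnfsf14 with Tnfrsf1a kept 0.91 to 0.98 throughout.

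With B-cell markers and 1 library left out, r ran from -0.34 to 0.31 for Btla, -0.41 to 0.29 for Tnfsf14 and -0.39 to 0.38 for Tnfrsf1a. Signs turned without Vec 1 (0.31, -0.41 and -0.39), for Tnfsf14 without Vec 4 (-0.01), and without Vec 1 and Vec 5 (0.33, -0.73 and -0.88). The cause was not tested. Depth limits Btla most, with 139 reads.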
